A study of Cryptomeria japonica with 72 samples.

Results

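Ethylene is a gaseous plant hormone that builds up quickly in wounded and excised tissue. It is made from S-adenosylmethionine, which ACC synthase turns into 1-aminocyclopropane-1-carboxylic acid (ACC), and ACC oxidase then converts ACC into ethylene. In Arabidopsis, ETO1 binds a class of ACC synthases and marks them for degradation, and so holds ethylene production down. The 4 targets described here are the putative genes of these steps that the rule named on the microarray of Cryptomeria japonica (sugi), a conifer propagated by cuttings. They were matched by their target names, and 4 of the 19304 targets on the array belonged to the set. Targets reCj26915 and reCj31127 are ACC oxidase homologues whose best Arabidopsis hit in the study's annotation is ACO5 for both. Target reCj25195 is annotated as ethylene-forming enzyme (EFE), an ACC oxidase known as ACO4, and reCj17974 is the ETO1 homologue. Each was read by 1 probe sequence, printed in 3 spots for the 3 ACC oxidase targets and in 4 spots for the ETO1 homologue. The probes were designed on isotig26767, isotig30979, isotig25047 and isotig17826, given in the order reCj26915, reCj31127, EFE and ETO1. No chromosomal position was analysed here.

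The cuttings came from donor trees of 1 clone, Tsukuba 1, which were 18 years old and grew in the field, and were kept in soil in a greenhouse. Needles (shoots with their needles), the base (the buried end, where roots form) and the middle (stem above ground) were sampled from 3 cuttings at each of 8 time points. These were 0 h post-excision (hpe), 0 h and 3 h post-insertion (hpi), 1 day and 3 days post-insertion (dpi), and 1, 3 and 6 weeks post-insertion (wpi). The 24 groups of 3 gave 72 arrays, the bases at 6 wpi were rooted, and 1 clone limits what the groups can stand for.

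A level below is the log2 of a target's mean processed signal minus the log2 of the array's 75th percentile, so that 0 is a bright target and each unit is a doubling. Between 66.0% and 86.9% of targets were well above background on the base arrays, 76.4% to 85.6% on the middle arrays and 73.1% to 83.9% on the needle arrays. Differences were tested with limma across all targets that passed a filter on dim spots, and a difference was called when its p, adjusted over those targets, was below 0.05. The filter left 9592 targets in base and middle, 12523 in needles and 9175 over all arrays. All 4 targets passed in base and middle, and EFE failed it in needles and over all arrays because of its needle signal at 3 wpi. Its needle results therefore come from a fit of all 19304 targets. The array slides were split by part, with needles and base side by side on 6 slides and the middle alone on 3, so slide and part cannot be told apart for base against middle. At the base and in needles, no slide held 0 hpe together with 3 hpi, 1 wpi, 3 wpi or 6 wpi, or 0 hpi together with 3 hpi. In the middle none held 0 hpe together with 0 hpi or 3 hpi. For these comparisons slide and time cannot be told apart either. In bulk tissue, fewer cells of a type and less RNA per cell cannot be told apart. The study picked these targets from those that varied in base and middle, so a difference among those groups is not independent evidence about them.

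**Figure D1:**
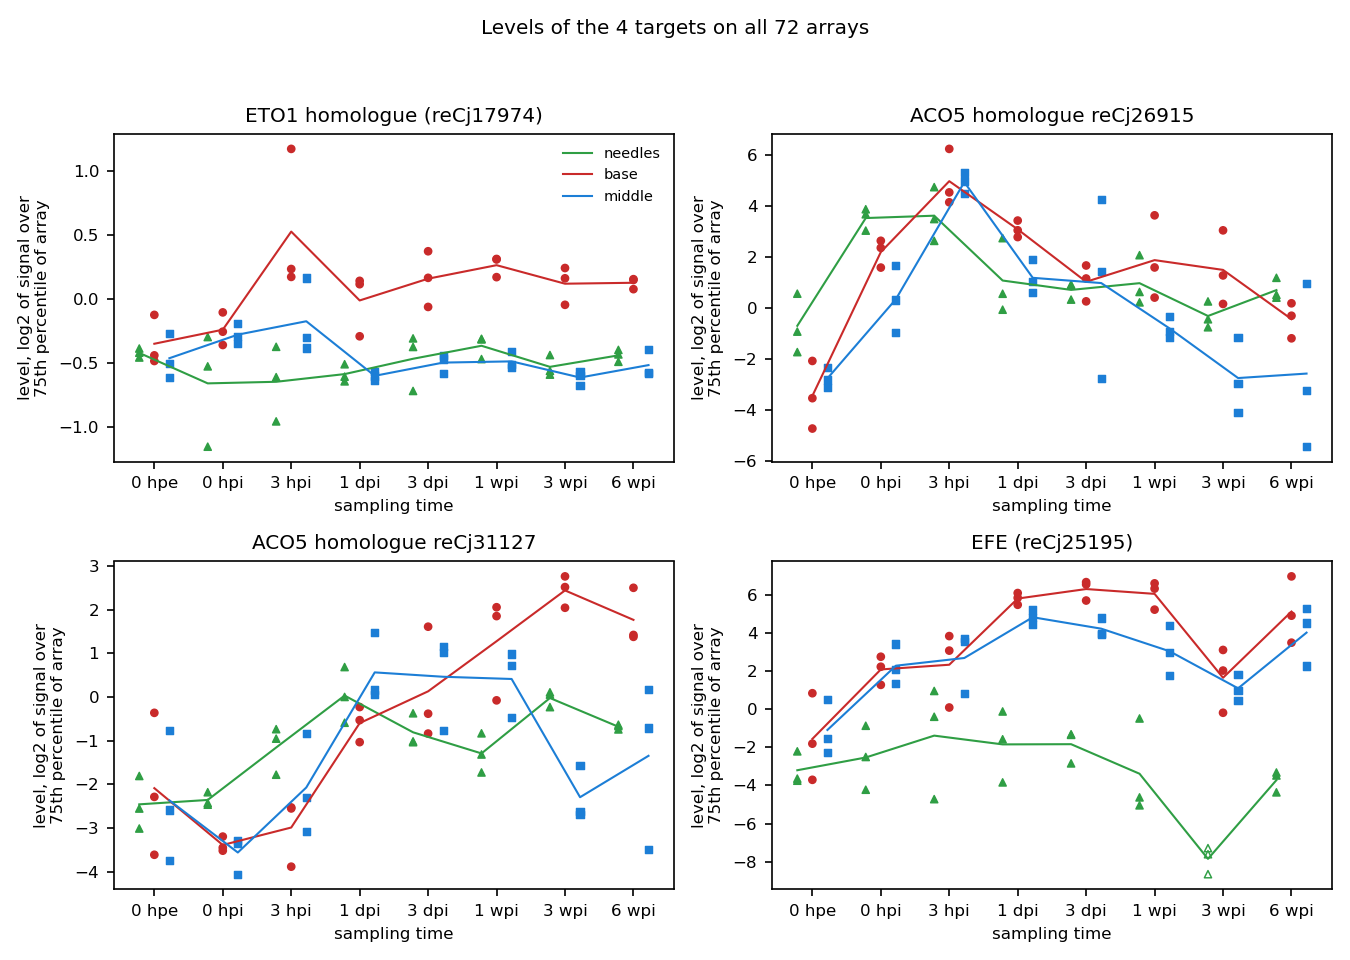
Level (log2 of signal over the array's 75th percentile) of the ETO1 homologue, both ACO5 homologues and EFE against sampling time. Each point is 1 array (triangles needles, circles base, squares middle), lines join the means of 3, and open points are not well above background. EFE was not well above background in needles at 3 wpi, and the group means of the ETO1 homologue spanned 1.19 units in all.

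The ETO1 homologue had the narrowest range of the 4. Its 24 group means spanned 1.19 log2 units, and the largest and smallest, 0.53 ± 0.56 at the base at 3 hpi and -0.66 ± 0.44 in needles at 0 hpi, were also those with the widest spread among base and needle groups (SD, n = 3). In base and middle, 67.1% of the targets tested had a wider range of group means. At 0 hpe its levels were -0.46, -0.39 and -0.42 in needles, -0.12, -0.48 and -0.44 at the base, and the middle arrays read -0.27, -0.61 and -0.50. The 3 parts overlapped before the cuttings were inserted.

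From 3 hpi on, the ETO1 homologue was higher at the base than in the middle at every later time. At 3 hpi its levels were 0.17, 1.17 and 0.24 at the base, against 0.17, -0.30 and -0.38 in the middle. Base replicate 2 stood far above the other two, and the lowest base array lay only just above the highest middle array. The difference was 0.70 (SE 0.17, adjusted p = 0.00723), a 1.63-fold higher level at the base. Here 5.39% of all targets tested were called higher at the base, and the ETO1 homologue was the only member of the 4 among them. Without base replicate 2 the difference was 0.38 and was not called, and it was also not called without middle replicate 2 or middle replicate 3. When only the arrays compared were fitted, the call was lost as well (adjusted p = 0.40).

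At 1 wpi the ETO1 homologue had levels of 0.31, 0.17 and 0.31 at the base, against -0.54, -0.51 and -0.41 in the middle. At 3 wpi they were 0.16, -0.04 and 0.24 at the base, against -0.60, -0.57 and -0.67 in the middle, and at 6 wpi 0.16, 0.15 and 0.08 at the base, against -0.58, -0.39 and -0.58 in the middle. Every base array lay above every middle array at these times. The differences were 0.75 at 1 wpi (SE 0.17, adjusted p = 0.000965), 0.73 at 3 wpi (adjusted p = 0.000798) and 0.64 at 6 wpi (adjusted p = 0.00257). At 3 dpi the difference was 0.66 (adjusted p = 0.00495). All 4 of these calls held without any 1 array. The call at 1 dpi (0.59, adjusted p = 0.0199) did not hold without base replicate 2 or 3 or middle replicate 1 or 2, where the differences were 0.51 to 0.59. It was also lost when only the arrays compared were fitted (adjusted p = 0.0612).

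Against its own 0 hpe level the ETO1 homologue was called higher at the base at 5 of 7 later times, by 0.88 at 3 hpi (adjusted p = 5.36e-05) and by 0.47 to 0.61 at 3 dpi, 1 wpi, 3 wpi and 6 wpi. Of all targets tested, 26.4%, 31.9%, 33.1%, 31.2% and 32.5% were called higher at these 5 times. At 1 dpi the difference was 0.34 (adjusted p = 0.0913). In the middle the 7 differences lay between -0.15 and 0.29, every 95% interval held 0, and none was called. The excess of the base change over the middle change was 0.64 at 1 wpi (SE 0.24, adjusted p = 0.0678) and 0.62 at 3 wpi (adjusted p = 0.0592). It was called at none of the 7 times, while its unadjusted 95% interval lay above 0 at 5, and under quantile normalization the call at 3 wpi passed (adjusted p = 0.0369). From 0 hpi to 3 hpi the level at the base rose by 0.77 (adjusted p = 0.000625; 20.4% of targets called higher), and from 3 hpi to 1 dpi it fell by 0.54 (adjusted p = 0.013; 14.2% called lower), a step lost without 3 hpi replicate 2 (-0.22) or 1 dpi replicate 1 (-0.40) and with slide as a block (-0.46). The call at 3 dpi was lost without base 0 hpe replicate 2 or base 3 dpi replicate 1, that at 6 wpi without base 0 hpe replicate 2 or 3, and that at 3 wpi without either of those or base 3 wpi replicate 1 or 3, where the differences were 0.40 to 0.45. When only the arrays compared were fitted, 1 wpi alone of the 5 base calls against 0 hpe held, and at 3 hpi the adjusted p was 0.0899.

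In needles the ETO1 homologue varied little. Its needle group means lay between -0.66 and -0.36, the F-test across the 8 times gave an adjusted p of 0.613, and 97.2% of the targets tested in needles had a wider range. It was lower in needles than at the base at 7 of 8 times. At 3 hpi its levels were -0.61, -0.96 and -0.37 in needles and 0.17, 1.17 and 0.24 at the base, a difference of -1.17 (SE 0.17, adjusted p = 1.09e-07). At that time 32.2% of all targets tested were called lower in needles. From 1 dpi to 6 wpi the differences were -0.65 to -0.57, all called, beside 36.9%, 39.1%, 36.5%, 39.1% and 37.2% of targets called lower at 1 dpi, 3 dpi, 1 wpi, 3 wpi and 6 wpi. The call at 0 hpi (-0.42, adjusted p = 0.0362) did not hold without base replicate 1 or 3 or needle replicate 1, or with replicate number or slide as a block. In the fits without those arrays the differences were -0.43 to -0.17, needles and base overlapped there, and 26.5% of targets were called lower.

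**Figure D2:**
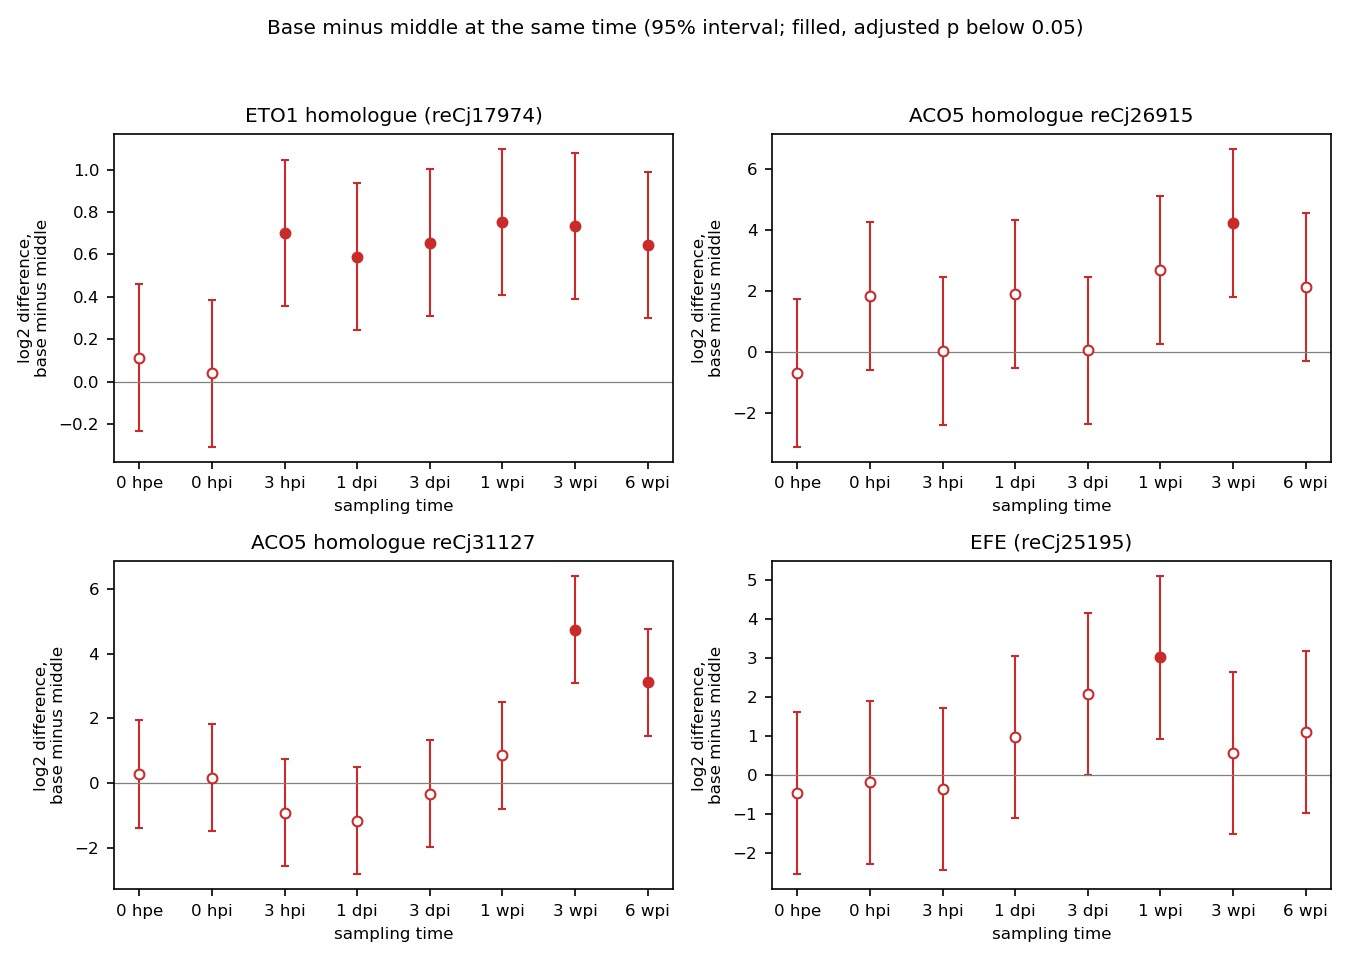
Difference in level between base and middle (log2, base minus middle) at each sampling time for the 4 targets, with 95% intervals from the limma fit. Filled points are called at an adjusted p below 0.05. The ETO1 homologue is filled at the 6 times from 3 hpi on, whereas the 3 ACC oxidases are filled at 1 wpi or later only.

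The ACO5 homologue reCj26915 was high within hours of excision in all 3 parts. At the base its levels were -3.54, -2.08 and -4.73 at 0 hpe, 1.59, 2.64 and 2.36 at 0 hpi, and 4.54, 6.25 and 4.15 at 3 hpi. In the middle they were -2.83, -3.14 and -2.33 at 0 hpe, 0.31, -0.95 and 1.68 at 0 hpi, and 5.33, 4.99 and 4.51 at 3 hpi. In needles they were -0.93, 0.56 and -1.73 at 0 hpe, 3.88, 3.68 and 3.04 at 0 hpi, and 4.75, 2.64 and 3.50 at 3 hpi. No later array of these groups overlapped with 0 hpe of the same part.

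Against 0 hpe, reCj26915 was 50.2-fold higher at the base at 0 hpi (log2 difference 5.65, SE 1.20, adjusted p = 0.000654) and 346-fold higher at 3 hpi (8.43, adjusted p = 4.44e-07). Among all targets tested, 9.53% were called higher at the base at 0 hpi and 26.4% at 3 hpi. In the middle the difference at 0 hpi was 3.11 (adjusted p = 0.0571), not called although the arrays did not overlap, and at 3 hpi the level was 209-fold higher (7.71, adjusted p = 7.54e-06; 20.9% of targets called higher). In needles it was 18.8-fold higher at 0 hpi (4.23, SE 0.67, adjusted p = 0.000131; 12.4% called higher) and 20.0-fold higher at 3 hpi (4.33, adjusted p = 0.000157; 13% called higher). In the middle the step from 0 hpi to 3 hpi was 4.60 (adjusted p = 0.00648; 11.8% called higher), lost without 0 hpi replicate 2 (3.95). The step of reCj26915 from 3 hpi to 1 dpi was downward in the middle (-3.76, adjusted p = 0.0283; 7.05% called lower) and in needles (-2.55, adjusted p = 0.0133; 8.98% called lower). The middle step was lost without 3 hpi replicate 1 or 2 or 1 dpi replicate 1 or 3 (-3.74 to -3.47), and with slide as a block. The needle step was lost without 3 hpi replicate 1 or 1 dpi replicate 1 or 3 (-2.29 to -1.97).

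At the base reCj26915 was called above its 0 hpe level at all 7 later times. Its base levels were 2.79, 3.05 and 3.44 at 1 dpi, 0.41, 3.64 and 1.59 at 1 wpi, and -1.19, 0.19 and -0.30 at 6 wpi. All of these lay above the highest 0 hpe array of the base. The differences were 6.54 at 1 dpi (adjusted p = 3.02e-05; 31.2% of targets called higher), 4.48 at 3 dpi (adjusted p = 0.00228; 31.9%), 5.33 at 1 wpi (adjusted p = 0.000389; 33.1%) and 4.95 at 3 wpi (adjusted p = 0.000857; 31.2%). At 6 wpi the difference had come down to 3.02 (adjusted p = 0.033; 32.5%). That last call was lost without base 0 hpe replicate 1 or 3 or base 6 wpi replicate 2 or 3 (differences of 2.37 to 2.97) and under normexp background correction, where the difference was 1.94.

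In the middle, reCj26915 was called higher than at 0 hpe at 3 hpi, 1 dpi and 3 dpi only. The differences were 3.95 at 1 dpi (adjusted p = 0.008; 23.6% of targets called higher) and 3.75 at 3 dpi (adjusted p = 0.0244; 12.5%). The 3 dpi arrays read -2.76, 1.43 and 4.28, and the call was lost without 3 dpi replicate 2 or 3 or 0 hpe replicate 1 or 2, where the differences were 2.10 to 3.71. With slide as a block neither call held, at 3.24 and 3.03. At 3 wpi and 6 wpi the differences in the middle were 0.01 (95% interval -2.41 to 2.44) and 0.19 (-2.24 to 2.62). In needles no difference was called after 3 hpi, the largest being 1.78 at 1 dpi (adjusted p = 0.091).

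Base and middle differed in reCj26915 at 3 wpi. Its levels were 0.16, 1.28 and 3.05 at the base, against -1.16, -4.11 and -2.98 in the middle, with no overlap. The base was 19.0-fold higher (4.25, SE 1.20, adjusted p = 0.00425), and leaving out 1 array gave differences of 3.47 to 5.04, all called. The change from 0 hpe was also larger at the base, by 4.93 (SE 1.69, adjusted p = 0.0348), against 13.1% of targets called in that direction. This second call was lost without base 0 hpe replicate 1 or 3, base 3 wpi replicate 3, middle 0 hpe replicate 3 or middle 3 wpi replicate 2 or 3 (4.16 to 4.89), and under normexp background correction. At 6 wpi the middle arrays read -3.23, 0.95 and -5.45, and the difference of 2.14 was not called (adjusted p = 0.139). At 1 wpi the arrays did not overlap and the difference was 2.68 (adjusted p = 0.0685), and at 3 hpi the difference was 0.04 (95% interval -2.39 to 2.46).

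Needles already held more reCj26915 than the base at 0 hpe, by 2.75 (adjusted p = 0.0276; 22% of targets called higher in needles). The call was lost without base replicate 1 or 3 or needle replicate 2, where the differences were 2.11 to 2.71, under normexp background correction and when only the arrays compared were fitted. The 2 pairs on 1 slide and the pair on another gave 2.81 and 2.64. At the 7 later times no needle against base difference was called, and they ran from -2.01 at 1 dpi to 1.34 at 0 hpi. With slide as a block, the differences at 1 dpi (-2.01, adjusted p = 0.0229) and 3 wpi (-1.81, adjusted p = 0.0401) were called.

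**Figure D3:**
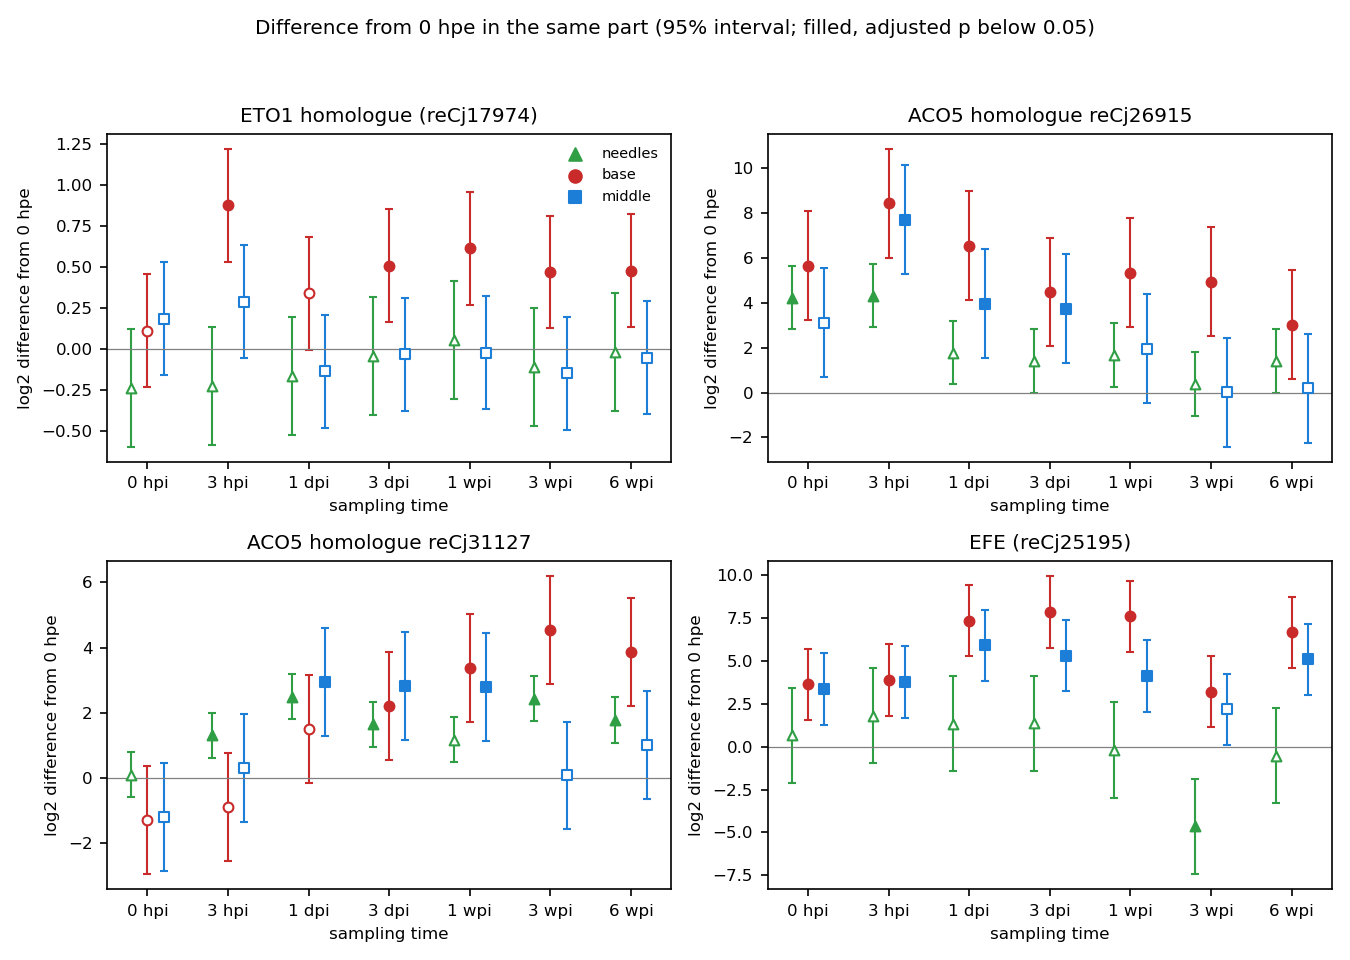
Difference in level from 0 hpe of the same part (log2) at each later time for the 4 targets, with 95% intervals from the limma fit. Triangles are needles, circles base and squares middle, and filled points are called at an adjusted p below 0.05. For the 2 ACO5 homologues, reCj26915 peaks at 3 hpi in both stem parts, whereas reCj31127 at the base is filled from 3 dpi on and is highest at 3 wpi.

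The other ACO5 homologue, reCj31127, was called above its 0 hpe level at the base from 3 dpi on only. At the base its levels were -0.36, -2.29 and -3.61 at 0 hpe, -3.45, -3.19 and -3.52 at 0 hpi, and -3.88, -2.55 and -2.53 at 3 hpi. They were 1.85, -0.08 and 2.06 at 1 wpi, 2.04, 2.76 and 2.52 at 3 wpi, and 1.42, 1.38 and 2.50 at 6 wpi. Arrays of the first 3 times overlapped, and all arrays of the last 3 times lay above all arrays of the first 3.

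Against 0 hpe, reCj31127 at the base was 10.3-fold higher at 1 wpi (3.36, SE 0.82, adjusted p = 0.000861), 23.1-fold higher at 3 wpi (4.53, adjusted p = 2.87e-05) and 14.4-fold higher at 6 wpi (3.85, adjusted p = 0.000212). Leaving out 1 array gave log2 differences of 2.60 to 4.23, 3.76 to 5.39 and 3.09 to 4.72 at these times, all called. At 3 dpi it was higher by 2.22 (adjusted p = 0.0227), a call that was lost without base 0 hpe replicate 2 or 3 or base 3 dpi replicate 1 (1.45 to 2.12), and the arrays overlapped. At 0 hpi, 3 hpi and 1 dpi the differences were -1.30, -0.90 and 1.49, with none called. The step from 3 hpi to 1 dpi was upward at the base (2.39, adjusted p = 0.021; 21.8% called higher) and in the middle (2.63, adjusted p = 0.0239; 8.9% called higher). The step at the base was lost without 3 hpi replicate 1 or 1 dpi replicate 1 or 2 (1.94 to 2.36), and with slide as a block. That in the middle was lost without 3 hpi replicate 1 or 2 or 1 dpi replicate 1 (2.14 to 2.52).

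In the middle, reCj31127 was higher than at 0 hpe at 1 dpi, 3 dpi and 1 wpi and lay near it at 3 wpi. Its middle levels were -0.77, -2.59 and -3.74 at 0 hpe, 1.48, 0.05 and 0.16 at 1 dpi, and -1.56, -2.69 and -2.63 at 3 wpi. The 1 dpi arrays lay above all 0 hpe arrays, and the 3 wpi arrays lay among them. The differences were 2.93 at 1 dpi (adjusted p = 0.00426), 2.83 at 3 dpi (adjusted p = 0.0135) and 2.78 at 1 wpi (adjusted p = 0.0291; 5.33% of targets called higher), against 0.07 at 3 wpi (95% interval -1.58 to 1.73). The call at 3 dpi was lost without middle 0 hpe replicate 2 or 3 or 3 dpi replicate 1 or 2 (2.14 to 2.72), that at 1 wpi without middle 0 hpe replicate 2 or 3 or 1 wpi replicate 1 or 3 (2.09 to 2.67), and both with slide as a block.

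Base and middle differed in reCj31127 at 3 wpi and 6 wpi. The 3 base arrays at that time, given above, lay more than 3 units over the middle arrays of -1.56, -2.69 and -2.63. The base was 26.6-fold higher (4.73, SE 0.82, adjusted p = 2.98e-05), and at 6 wpi it was 8.65-fold higher (3.11, adjusted p = 0.00239). At 3 wpi, 28.6% of all targets tested were called higher at the base, and at 6 wpi 27.6%. The call at 6 wpi was lost without middle replicate 3, which read -3.50 beside -0.71 and 0.17, and the difference was then 2.04. From 0 hpe to 3 wpi the base change exceeded the middle change by 4.45 (SE 1.15, adjusted p = 0.00736), and this call held without any 1 array. From 0 hpe to 6 wpi the excess was 2.83 (adjusted p = 0.0683). With the replicate number as a block it was called (adjusted p = 0.0228). Over all targets tested, same-numbered base and middle arrays deviated together at both times. At 6 wpi, however, a pair with different numbers reached a correlation of 0.26, above the lowest same-numbered value of 0.17. For reCj31127 itself the same-numbered arrays of 6 wpi deviated in opposite directions. Base replicates 1 to 3 lay -0.35, -0.39 and 0.73 from their mean, against 0.64, 1.51 and -2.15 for the middle replicates.

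In needles reCj31127 was called higher than at 0 hpe from 3 hpi on, except at 1 wpi, where it just missed the threshold. Its levels were -2.55, -1.81 and -3.01 at 0 hpe, 0.00, 0.69 and -0.59 at 1 dpi, and 0.06, 0.11 and -0.23 at 3 wpi. Every array of the later pair of times lay above every 0 hpe array. The target was called higher than at 0 hpe at 5 of 7 times, by 1.30 at 3 hpi (adjusted p = 0.00713), 2.49 at 1 dpi (adjusted p = 0.000102; 6.62% of targets called higher), 1.65 at 3 dpi (adjusted p = 0.00923; 2.88%), 2.43 at 3 wpi (adjusted p = 7.24e-05; 14.2%) and 1.78 at 6 wpi (adjusted p = 0.000498; 18.8%). The call at 3 dpi was lost without needle 3 dpi replicate 3 (1.43), and that at 1 wpi (1.17, adjusted p = 0.0501) missed the threshold. No array of 1 wpi overlapped with 0 hpe. That difference was called under quantile normalization (adjusted p = 0.0374) and with slide as a random block (adjusted p = 0.0479). Relative to the base, needles were higher at 3 hpi (1.83, adjusted p = 0.0231; 25.1% called higher) and lower at 1 wpi, 3 wpi and 6 wpi, with differences of -2.57 (adjusted p = 0.00167), -2.46 (adjusted p = 0.00237) and -2.45 (adjusted p = 0.00274). Between neighbouring times the needle level of reCj31127 rose by 1.20 from 0 hpi to 3 hpi (adjusted p = 0.0129; 12.8% called higher), by 1.19 from 3 hpi to 1 dpi (adjusted p = 0.0174; 10.7%) and by 1.27 from 1 wpi to 3 wpi (adjusted p = 0.0151; 7.23%). The first of these was lost without 3 hpi replicate 3 (0.99), and the second without 3 hpi replicate 1 or 1 dpi replicate 2 (0.86 at the lowest). The last was lost without 1 wpi replicate 3 or 3 wpi replicate 1 or 2 (1.05 at the lowest), and with slide as a block. The needle against base call at 3 hpi was lost without base replicate 1 or needle replicate 2 or 3 (1.38 to 1.73) and under normexp background correction.

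EFE, the third ACC oxidase, was high in the stem and low in needles. At 0 hpe its levels were -3.64, -2.21 and -3.75 in needles, -3.70, -1.81 and 0.84 at the base, and the middle arrays read -2.26, -1.53 and 0.53. At 1 dpi they were -1.58, -0.12 and -3.84 in needles, 5.84, 6.10 and 5.48 at the base, and the middle arrays read 4.45, 4.82 and 5.21. The parts overlapped at excision, and a day after insertion each stem array lay far above each needle array.

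In the stem, EFE was higher than at 0 hpe at nearly every later time. At the base all 7 differences were called, with 12.5-fold at 0 hpi (3.65, SE 1.03, adjusted p = 0.00888), 165-fold at 1 dpi (7.36, adjusted p = 5.98e-07), 233-fold at 3 dpi (7.86, adjusted p = 3.51e-07) and 195-fold at 1 wpi (7.61, adjusted p = 4.94e-07). Of all targets tested, 9.53% were called higher at the base at 0 hpi, 26.4% at 3 hpi and 31.2% to 33.1% from 1 dpi on. In the middle 6 of 7 were called, with 60.3-fold at 1 dpi (5.92, adjusted p = 3.3e-05) and 39.8-fold at 3 dpi (5.32, adjusted p = 0.000609). There 20.9% of all targets tested were called higher at 3 hpi, 23.6% at 1 dpi, 12.5% at 3 dpi and 5.33% at 1 wpi. The 0 hpe level itself varied over more than 4 log2 units at the base, and leaving out 0 hpe replicate 1, 2 or 3 moved the base difference at 1 dpi between 6.29 and 8.56. The base call at 0 hpi was lost without 0 hpe replicate 1 (2.57), and that at 3 wpi (3.21, adjusted p = 0.00911) without 0 hpe replicate 1 (2.14) or 3 wpi replicate 3 (2.48). The step from 3 hpi to 1 dpi at the base was 3.47 (adjusted p = 0.00809), lost without 3 hpi replicate 2 (2.35) and with slide as a block (2.78). The middle call at 0 hpi (3.37, adjusted p = 0.0175; 8.47% of targets called higher) was lost without 0 hpe replicate 1 or 2 or 0 hpi replicate 1, where the differences were 2.79 to 3.15. The middle call at 1 wpi (4.13, adjusted p = 0.0118) was lost without 0 hpe replicate 1 or 2 or 1 wpi replicate 2 or 3, where the differences were 3.46 to 4.16. At 6 wpi the middle was 34.5-fold above 0 hpe (5.11, adjusted p = 0.00299; 3.51% called higher).

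The mean level of EFE was lower at 3 wpi than at 1 wpi and 6 wpi in each part. Its base levels were 5.23, 6.60 and 6.33 at 1 wpi, 2.03, -0.19 and 3.11 at 3 wpi, and 4.91, 6.97 and 3.49 at 6 wpi. Its middle levels were 1.77, 4.37 and 2.98 at 1 wpi, 1.84, 0.97 and 0.47 at 3 wpi, and 4.52, 5.27 and 2.27 at 6 wpi. Its needle levels were -5.04, -0.49 and -4.63 at 1 wpi, -8.66, -7.29 and -7.61 at 3 wpi, and -3.48, -3.32 and -4.36 at 6 wpi. At the base and in needles the 3 wpi arrays lay below all arrays of the neighbouring times, whereas in the middle 1 wpi replicate 1 overlapped with them.

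The step of EFE from 1 wpi to 3 wpi was called at the base (-4.40, SE 1.03, adjusted p = 0.0147), where 1.23% of all targets tested were called lower. It was lost without base 1 wpi replicate 2 or 3 or base 3 wpi replicate 2 (-4.26 to -3.48), and with slide as a block (-2.79). In needles the 3 wpi signal was not well above background on any of the 3 arrays (2.26 to 6.59 units of intensity). By group means EFE was there at least 6.87-fold lower than at 1 wpi and at least 7.80-fold lower than at 0 hpe. These bounds set the dim arrays at the lowest signal that was still well above background and were not themselves tested. The measured differences were called, at -4.47 (adjusted p = 0.0435; 4.73% of targets called lower) and -4.65 (adjusted p = 0.0189; 12.1% called lower). Over the alternatives they were as small as -1.72 and -1.79, smaller in size than the log2 bounds of 2.78 and 2.96. The bound against 1 wpi rests largely on needle 1 wpi replicate 2, at -0.49 beside -5.04 and -4.63. The call against 0 hpe was lost without needle 0 hpe replicate 2 or needle 3 wpi replicate 1 (measured differences of -4.25 and -4.16) and under normexp background correction (-1.79). The call against 1 wpi was lost without any of the 3 needle arrays of 3 wpi or needle 1 wpi replicate 2 or 3, where the measured differences were -5.09 to -3.02, and under normexp or with slide as a block. The step from 3 wpi to 6 wpi was not called at the base, in the middle or in needles. In needles the measured step was 4.13 (adjusted p = 0.166), and the bound from the group means was at least 5.45-fold upward.

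Same-numbered base and middle arrays deviated together in EFE at 0 hpe and 3 hpi, but not at every time. Replicate 3 lay -0.33 from the base mean and 0.38 from the middle mean at 1 dpi, and 1.46 and -0.62 at 3 wpi. At 0 hpe replicate 1 was the lowest and replicate 3 the highest in both parts, and at 3 hpi replicate 2 was low in both (0.09 at the base, 0.81 in the middle) beside 3.07 and 3.84 at the base, and the other middle arrays read 3.54 and 3.71. The ACO5 homologue reCj31127 showed the opposite order at 0 hpe, with replicate 1 the highest and replicate 3 the lowest in both parts. Over all targets tested, same-numbered base and middle arrays deviated together at 0 hpe, with correlations of 0.75 to 0.95, but not at 3 hpi (-0.18 to 0.22). Needle arrays did not share the order of EFE at 0 hpe, where replicate 2 was the highest.

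Base and middle differed in EFE at 1 wpi. The levels, given above for both parts, did not overlap, and the base was 8.07-fold higher (3.01, SE 1.03, adjusted p = 0.0189; 25.3% of targets called higher). This call was lost without base replicate 2 or 3 or middle replicate 1 (2.38 to 2.87) and under quantile normalization. At 3 dpi the levels were 5.70, 6.67 and 6.55 at the base, against 3.98, 4.79 and 3.92 in the middle, also without overlap. The difference of 2.08 was not called (adjusted p = 0.125), but was called with the replicate number as a block (adjusted p = 0.00306), and 3 dpi was a time at which the numbers paired base and middle. The change from 0 hpe to 3 dpi was larger at the base by 2.55 (adjusted p = 0.292, and 0.0261 with the replicate block). That from 0 hpe to 1 wpi was larger by 3.48, not called in the main fit but called with the replicate block (adjusted p = 0.00342). At 1 wpi the lowest correlation of same-numbered base and middle arrays was 0.07, under the 0.1 set for pairing. It was still above the highest for arrays of different numbers, 0.04. At 3 wpi and 6 wpi the differences were 0.55 and 1.10, with intervals of -1.53 to 2.64 and -0.98 to 3.19.

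**Figure D4:**
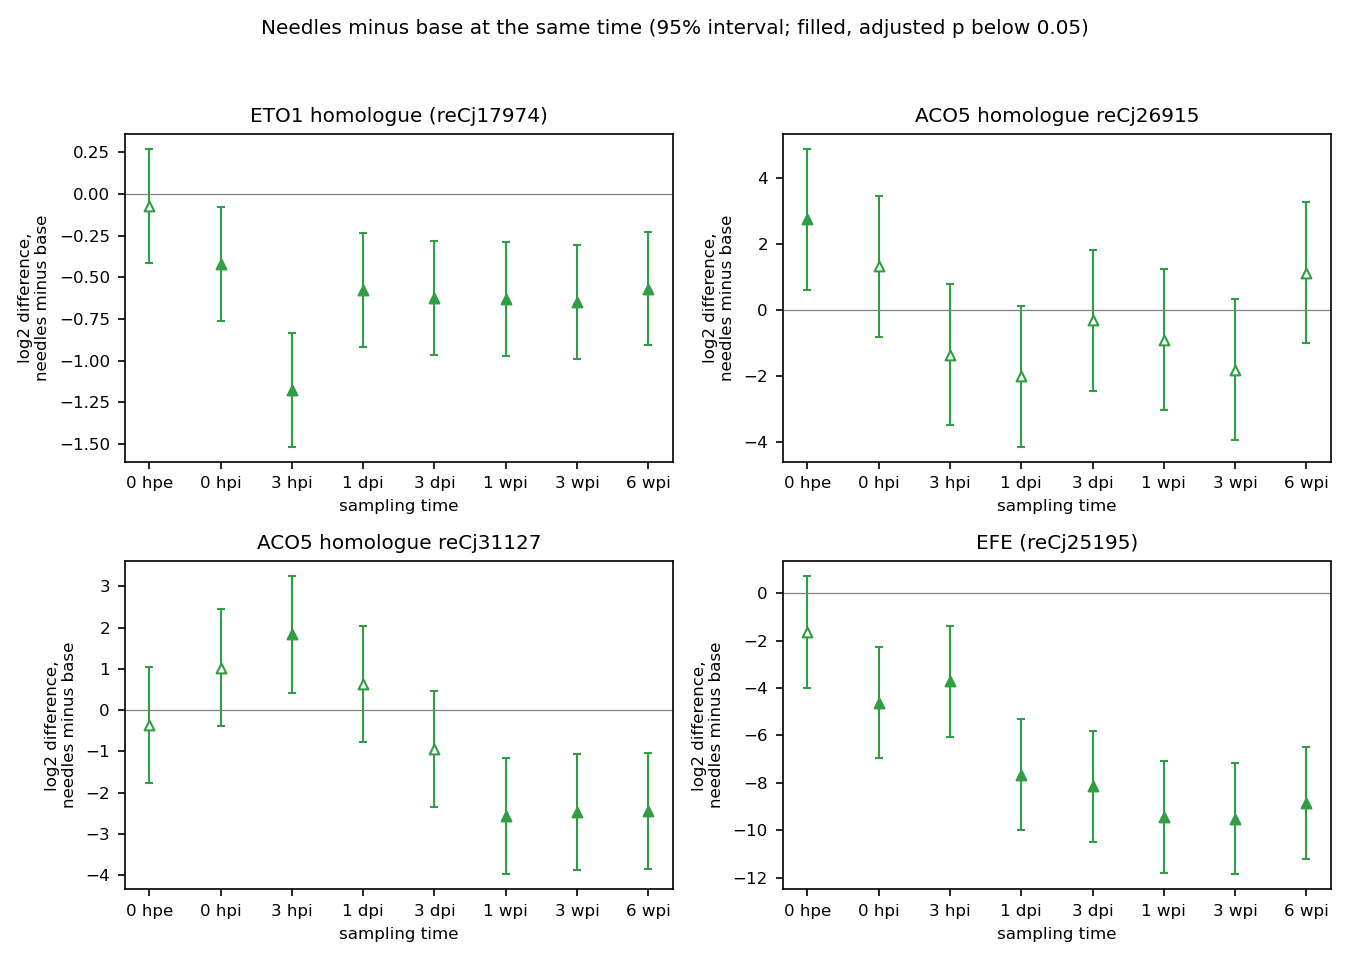
Difference in level between needles and base (log2, needles minus base) at each sampling time for the 4 targets, with 95% intervals from the limma fit. Filled points are called at an adjusted p below 0.05. EFE is lower in needles at the 7 times after 0 hpe, and reCj31127 is higher in needles at 3 hpi and lower from 1 wpi on.

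EFE was much lower in needles than at the base after excision. At 0 hpe the difference was -1.64 (SE 1.17, adjusted p = 0.286). It was -4.62 at 0 hpi (adjusted p = 0.00117; 23.5% of all targets called lower in needles), -3.72 at 3 hpi (adjusted p = 0.00719; 28.2%), -7.65 at 1 dpi (adjusted p = 3.59e-07; 40.1%) and -8.14 at 3 dpi (adjusted p = 9.39e-08; 47.6%). At 1 wpi and 6 wpi it was -9.44 (adjusted p = 3.46e-09; 48.6%) and -8.84 (adjusted p = 1.48e-08; 47.9%), which are 694-fold and 459-fold lower levels in needles. Leaving out 1 array gave -10.89 to -8.61 at 1 wpi and -9.66 to -7.92 at 6 wpi, all called. At 3 wpi the measured difference was -9.50 (adjusted p = 2.33e-09; 44.4%), and as small as -5.67 over the alternatives. In the main processing the bound from the group means, not itself tested, was at least 225-fold lower in needles. On the log2 scale that bound is 7.82, larger in size than the -5.67, so it did not hold under every alternative. Among the called times needle and base arrays overlapped at 3 hpi alone, with -4.72, -0.40 and 0.96 in needles and 3.07, 0.09 and 3.84 at the base, and there the call was lost without base replicate 3 or needle replicate 1 (-2.97 and -2.05). In a fit without the 3 needle arrays of 3 wpi, in which EFE passed the filter on dim spots, the same 6 differences outside 3 wpi were called.

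Needles and base also differed in how EFE changed after excision. From 0 hpe, the change in needles minus the change at the base was -6.01 at 1 dpi (SE 1.65, adjusted p = 0.00458; 18.7% of all targets called lower), -6.50 at 3 dpi (adjusted p = 0.00213; 30.6%), -7.79 at 1 wpi (adjusted p = 0.000241; 36.6%) and -7.20 at 6 wpi (adjusted p = 0.000389; 37.7%). At 3 wpi, where 30.2% were called lower, the measured value of -7.86 rests on the dim needle arrays. All of these calls held without any 1 array. At 0 hpi and 3 hpi the differences of -2.98 and -2.08 were not called. This test was added after the values were seen.

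Counted over the 4 targets and 8 times, base against middle gave 10 calls of 32, all higher at the base, 6 of them in the ETO1 homologue. No member was called, or had an unadjusted 95% interval that left out 0, at 0 hpe or 0 hpi, when 0.0104% and 0.136% of all targets tested were called in either direction. At 1 dpi and 3 dpi, 1 of the 4 was called (9.8% and 17.5% of targets called higher at the base), at 1 wpi 2 (25.3%), at 3 wpi 3 (28.6%) and at 6 wpi 2 (27.6%). Of the 4 photosynthesis genes used as markers of green tissue (photosystem I subunits O and L, ferredoxin and a fructose-bisphosphate aldolase), the base was called lower in 4 at 3 hpi and from 3 dpi on, and in 2 at 1 dpi. Their summed level at 6 wpi lay between 0.89 and 2.77 at the base and between 5.36 and 8.21 in the middle. At 0 hpe it lay between 7.29 and 8.02 at the base and between 7.41 and 8.43 in the middle, and all 4 were well above background in every group. Their part in the differences of the ethylene genes was not tested. Between needles and base at 0 hpe their differences ran from -0.14 to 0.34, and none was called.

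Ordered by mean level, neighbouring groups were mostly within the spread of their replicates. For reCj26915, 3 of the 23 gaps between neighbours in the order of 24 groups exceeded the larger SD of the pair, for reCj31127 2, for EFE 3 and for the ETO1 homologue none. The highest groups of reCj26915 were the base and the middle at 3 hpi (4.98 ± 1.12 and 4.95 ± 0.41, SD, n = 3 each) and its lowest the base at 0 hpe (-3.45 ± 1.33). For reCj31127 the highest was the base at 3 wpi (2.44 ± 0.37), above the next by more than the larger SD, and the lowest the middle at 0 hpi (-3.56 ± 0.43). For EFE the highest was the base at 3 dpi (6.31 ± 0.53) and the lowest, set apart from all others, needles at 3 wpi (-7.85 ± 0.71). In base and middle, the range of group means was 8.43 for reCj26915, 7.86 for EFE and 6.00 for reCj31127, against a median of 1.46 over the targets tested, and 0.156%, 0.229% and 1.26% of targets had a wider range.

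The group means of the 2 ACO5 homologues showed almost no correlation. Across the 24 group means their correlation was -0.02, and across the 16 of base and middle it was 0.03. EFE and reCj31127 correlated at 0.53 over those 16 groups and reCj26915 and the ETO1 homologue at 0.61. The groups share clone, platform and scaling, so these are descriptions. The targets whose profile over 24 groups was most like that of reCj26915 were reCj23451, annotated as a nucleotide-sugar transporter (r = 0.93), reCj27419, an MSF1-like protein (r = 0.92), and reCj27645, a SNARE-associated Golgi protein (r = 0.90). The nearest to EFE were reCj22675 (r = 0.93) and reCj31126 (r = 0.93), not annotated here, and reCj26007, annotated as methylthioadenosine nucleosidase MTN1 (r = 0.92), an enzyme of the Yang cycle that recycles the by-product of ACC synthesis. For reCj31127 they were reCj25721, reCj25018 and reCj24893 (r = 0.87 to 0.89), and for the ETO1 homologue reCj20532, reCj20952 and reCj19124 (r = 0.91 to 0.94), all without annotation here. These were chosen from 9172 targets by their likeness.

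The rest of the ethylene pathway was read from a list of 22 targets annotated as S-adenosylmethionine synthetase (MTO3), the copper transporter RAN1, receptors, the transcription factor EIL1 with its F-box proteins, and ethylene response factors. The list leaves ACC synthase out, and the study annotated it on targets that varied on these arrays. Of the 22, 19 could be tested in base and middle. Against 0 hpe, 16 were called higher and 1 lower at the base at 3 hpi, beside 26.4% and 27.4% of all targets tested. The median difference was 2.35, against -0.01 over all targets tested. In the middle at 3 hpi, 14 were called higher and 1 lower, beside 20.9% and 20.3% of all targets, with a median of 1.95. At 6 wpi 2 were called in the middle, each higher, beside 3.51% of all targets called higher. At the base 13 were called, all higher, beside 32.5% of all targets called higher, with a median of 1.37 against 0.16 over all targets. The largest of these at 6 wpi were ERF3 (reCj29975), a repressor-type factor, at 3.10 (adjusted p = 3.9e-05) and ERF-1 (reCj27288), an activator, at 3.03 (adjusted p = 4.3e-05), and the smallest EIL1 at 0.94 and ERF12 (reCj20100) at 0.70.

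Base against middle gave fewer calls in the pathway list. Of the 19, 0 were called at 3 hpi and 1 dpi, when 11.6% and 15.7% of all targets were called in either direction. At 3 dpi 3 were higher at the base, no larger a share than the 17.5% of all targets tested. At 1 wpi 12 were higher, beside 25.3% of all targets, with a median difference of 1.14 against 0.12 over all targets tested. At 6 wpi 5 were higher, no larger a share than the 27.6% of all targets, and 1 was lower, beside 19.9%. Those at the ends were ERF3 (reCj29975) at 2.65 (adjusted p = 0.000359) and ERF-1 (reCj25854) at 2.52 (adjusted p = 0.000203), and EBF1, an F-box protein that removes EIN3-type factors in Arabidopsis, at 1.06 (adjusted p = 0.0317) and the S-adenosylmethionine synthetase reCj13211 at -1.63 (adjusted p = 0.0106). In needles, 12 of 22 were higher and 1 lower than at 0 hpe at 0 hpi, beside 12.4% and 14.3% of all targets. At 6 wpi 2 were higher and 2 lower, smaller shares than the 18.8% and 19.1% of all targets. Needles were below the base in 16 of 19 at 3 hpi and in 13 of 19 at 6 wpi, with median differences of -1.68 and -1.38. Over all targets 32.2% and 37.2% were called lower in needles, with medians of -0.11 and -0.25.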

How the data were processed

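Total RNA of 72 samples (3 parts, 8 times, 3 cuttings each, grouped by their labels) was hybridised to 1-colour Agilent arrays. The authors deposited spot intensity values from Agilent Feature Extraction 11.5, background-subtracted and not normalized between arrays, and a table of log2 values scaled to the 75th percentile and centred per probe. Recomputed values differed from the deposited log2 values by at most 0.00459.

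For each of 19304 targets processed signals were averaged over the spots not marked as non-uniform, and the log2 of the array's 75th percentile was subtracted from the log2 of that mean. Targets tested had no such flag, all spots well above background and a mean above 10 on every array of the dataset, as in the study's methods. limma 3.58.1 in R 4.3.3 (lmFit, eBayes, no block, Benjamini-Hochberg) was fitted per dataset, and tested on simulated data. Reading and plotting used Python 3.11.15 with pandas 2.3.3 and matplotlib 3.10.9. The number of arrays limits the precision. No spot of the 4 targets was saturated. The members, lists and tests were chosen with earlier results of these data known. Named genes were the 4 targets, the pathway targets with the largest and smallest called differences (base against middle at 3 hpi and 6 wpi, and the base at 6 wpi against excision), and 3 nearest profiles per target. Further values were picked after they were seen.

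The methods give 3 cuttings per time, and whether a replicate number marks the same cutting in each part is not stated. Same-numbered base and middle arrays correlated above 0.1 in every pair at 3 of 8 times (0 hpe, 3 dpi and 6 wpi), same-numbered needle and base arrays at none. The alternatives were other filters, quantile and normexp processing (with an offset of 50, on median in place of mean signals), the deposited log2 values, separate fits, a log2 difference of at least 1, replicate and slide blocks, within-slide values and leaving out each array.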

Additional observations from a re-analysis of the deposited data

Results flagged for a closer look

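Differences between parts in how a target changed from 0 hpe were tested directly, and 13 were called. The change at the base exceeded that in the middle at 3 wpi by 4.93 for the ACO5 homologue reCj26915 and by 4.45 for reCj31127 (log2). The other 11, all from the test added after the values were seen, are changes in needles minus changes at the base. For reCj26915 they were -4.11 at 3 hpi, -4.77 at 1 dpi, -3.66 at 1 wpi and -4.56 at 3 wpi. At the same times the base was called above its 0 hpe level, whereas needles, which started higher, were called above theirs at 3 hpi only. Of all targets, 15.9%, 22.7%, 22.7% and 28.1% were called in that direction at these 4 times. For EFE the differences were -6.01 a day after insertion and -6.5 at 3 dpi. At 1 wpi and 6 wpi they were -7.79 and -7.2. At 3 wpi the needle signal was not well above background, and the measured value of -7.86 was as small as -4.40 over the alternatives. For the ETO1 homologue they were -1.1 at 3 hpi and -0.578 at 3 wpi. Of 12 fits that each left out 1 array, 5 lost the call of reCj26915 at 3 hpi (-4.06 to -3.47), 8 that at 1 wpi (-3.80 to -2.78) and 9 that of the ETO1 homologue at 3 wpi (-0.60 to -0.51). Both of those reCj26915 calls were also lost under normexp and quantile processing. Groups of 3 arrays are too small for a test of single outlying arrays.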

How the results depend on the processing

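Over the 4 targets, no called difference changed sign under any alternative. Counts of calls were 10 of 32 for base against middle, 23 of 28 for the base against 0 hpe, 12 of 28 for the middle against 0 hpe, 2 of 28 for the excess of the base change over the middle change, 8 of 28 for needles against 0 hpe, 19 of 32 for needles against base, 17 of 84 for each time against the one before and 11 of 28 for the excess of the needle change over the base change. Among all targets that passed the filter, 9.53% to 33.1% were called higher at the base and 0.073% to 23.6% in the middle against 0 hpe, by time. For base against middle 0% to 28.6% were called higher, and for needles against 0 hpe 2.57% to 18.8%. Lower in needles than at the base were 26.5% to 39.1%. The positive-and-significant filter, no filter and the deposited log2 values changed no call they could give. Requiring a log2 difference of at least 1 left 4 for base against middle, since the ETO1 homologue's differences are small. Fitting only the arrays compared, with fewer arrays to estimate the spread, gave 15 calls for the base, all among the 23. It gave 7 for the middle (5 kept and 2 new), 11 for the steps (7 kept and 4 new) and 11 for base against middle (7 kept and 4 new). Slide as a fixed block gave 11 for the steps (10 kept and 1 new), and normexp left 1 for the excess of the base change over the middle change. The cause of the last 2 was not tested. With the replicate number as a block, the excess of the base change over the middle change gave 5 calls (2 kept and 3 new), base against middle 11, needles against base 18 and the excess of the needle change over the base change 12. Leaving out each array gave 9 to 11 calls for base against middle, 19 to 24 for the base, 7 to 13 for the middle, 1 to 4 for the excess of the base change over the middle change, 7 to 10 for needles, 18 to 20 for needles against base, 15 to 18 for the steps and 8 to 16 for the excess of the needle change over the base change. The 7 in the middle came without middle 0 hpe replicate 2. For the excess of the base change over the middle change, 1 call was left without base 3 wpi replicate 3 or middle 3 wpi replicate 2 or 3, and 4 were made without base 0 hpe replicate 1 or middle 6 wpi replicate 2. Within slides, 48 of 48 values of called needle against base differences, and 10 of 10 at the base, 9 of 9 in the middle and 4 of 4 in needles against 0 hpe, had the same sign. The values against 0 hpe covered only 8 of the 23 called base results, 9 of the 12 in the middle and 3 of the 8 in needles. The rest had no slide that held both groups and could not be read in this way. Over all calls, the arrays of the groups compared did not overlap in 17 of 19 for needles against base. Against 0 hpe they did not overlap in 20 of 23 at the base, 11 of 12 in the middle and 8 of 8 in needles. Without overlap the sign within a slide is fixed in advance, so these counts are no test of a slide effect. EFE in needles at 3 wpi is limited by background, so its differences there depend on how dim signals are treated. The bounds given for it were computed in the main processing.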
